A study of Mus musculus with 9 samples.

Results

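Interferon-stimulated genes are genes that cells transcribe more after an interferon has bound its receptor, and 43 of them were followed here through pancreatic islets of male mice kept on 3 diets. Members were chosen by name, with no cutoff on any value, from a count table of 56941 gene identifiers. All 43 had a row and all 43 were among the 18548 genes with enough counts to be tested. The names themselves were selected on the counts of these same 9 libraries, seen by diet, so every difference between diets given for them is a description and not independent evidence of its direction. All animals were wild-type C57BL/6J males, 15 weeks old when the diet began and kept on it for 9 months. The low fat diet (LFD, 10% fat, 3 libraries) was the control, and the others were a high fat diet (HFD, 60% fat, 2 libraries) and a ketogenic diet (KD, 89.9% fat, 4 libraries). Islets, the hormone-secreting cell clusters of the pancreas, were snap frozen as whole preparations, so each library holds RNA of every cell type carried along. The sources used here do not say whether a library came from 1 animal or from a pool, and p-values therefore measure the spread between these libraries. Each library is called below by its diet and replicate number, such as KD 3.

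Type I interferons signal through a receptor whose kinases activate STAT2, among others, and STAT2 enters a complex with IRF9 that binds the interferon-stimulated response element (ISRE) in promoters. Type II interferon acts through another promoter element, the gamma-activated sequence (GAS), and Irf1 is among its direct targets, whose protein binds ISRE-like sites. The induced proteins sense foreign nucleic acid, cut or block viral RNA, form GTPase coats on intracellular membranes, or load peptides for antigen presentation. In islets, this programme is best known from autoimmune and virally infected tissue, and most of these genes also have a basal level in resting cells.

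Stretches upstream of the transcription start are shown for 8 members to make the elements visible: the promoters that held a motif in the 200 bases shown among members that fell on the ketogenic diet (Irf1, Ifi203 and Trim30a), members of the IFIT and GTPase classes described below (Ifit1, Gbp7 and Irgm1), and the closely similar pair Ifit3 and Ifit3b. Each is the 200 bases before the start, 5′ to 3′ on the gene's own strand, from the promoter table of RefSeq on GRCm38.p6, with the motif letters in capitals. The counts themselves were made on GRCm39, per the submitters' processing notes, and no position was carried between these builds. In the order printed, the windows lie at chr11:53769814-53770013 (plus strand), chr1:173942493-173942692 (minus strand), chr7:104465194-104465393 (minus strand), chr19:34640689-34640888 (plus strand), chr3:142530136-142530335 (plus strand), chr11:48871421-48871620 (minus strand), chr19:34583329-34583528 (plus strand) and chr19:34607757-34607956 (plus strand).
Irf1: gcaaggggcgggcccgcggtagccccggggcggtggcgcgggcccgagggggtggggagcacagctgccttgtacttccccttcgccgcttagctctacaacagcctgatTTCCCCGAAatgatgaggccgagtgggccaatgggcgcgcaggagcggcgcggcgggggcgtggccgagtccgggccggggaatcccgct
Ifi203: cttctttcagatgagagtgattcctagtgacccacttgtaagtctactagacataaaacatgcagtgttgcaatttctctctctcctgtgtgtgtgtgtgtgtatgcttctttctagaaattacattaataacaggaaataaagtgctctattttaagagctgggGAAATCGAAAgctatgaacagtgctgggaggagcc
Trim30a: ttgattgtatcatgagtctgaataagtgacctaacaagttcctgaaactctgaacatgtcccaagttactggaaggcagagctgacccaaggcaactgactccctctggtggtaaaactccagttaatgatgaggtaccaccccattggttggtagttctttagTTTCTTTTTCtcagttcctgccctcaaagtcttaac
Ifit1: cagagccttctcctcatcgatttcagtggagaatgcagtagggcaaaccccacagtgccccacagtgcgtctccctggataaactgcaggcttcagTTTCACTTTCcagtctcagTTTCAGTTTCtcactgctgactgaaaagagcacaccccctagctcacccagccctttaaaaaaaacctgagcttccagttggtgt
Gbp7: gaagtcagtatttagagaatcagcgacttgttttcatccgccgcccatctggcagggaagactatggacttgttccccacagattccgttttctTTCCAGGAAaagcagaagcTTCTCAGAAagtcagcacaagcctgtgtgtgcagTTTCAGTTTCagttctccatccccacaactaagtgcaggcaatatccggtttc
Irgm1: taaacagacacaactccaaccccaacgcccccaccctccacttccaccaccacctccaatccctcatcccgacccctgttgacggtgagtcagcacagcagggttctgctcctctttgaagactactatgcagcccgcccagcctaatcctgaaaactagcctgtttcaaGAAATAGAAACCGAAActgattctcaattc
Ifit3: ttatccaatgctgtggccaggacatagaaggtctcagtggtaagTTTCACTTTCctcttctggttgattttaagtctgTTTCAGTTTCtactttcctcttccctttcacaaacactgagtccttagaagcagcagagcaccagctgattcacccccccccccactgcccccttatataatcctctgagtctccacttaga
Ifit3b: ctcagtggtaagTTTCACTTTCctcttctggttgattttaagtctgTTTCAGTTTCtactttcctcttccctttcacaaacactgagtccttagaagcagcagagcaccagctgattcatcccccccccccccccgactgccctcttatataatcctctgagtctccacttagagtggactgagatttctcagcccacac
The capitals in Irf1 are a GAS core, those in Gbp7 are a pair of GAS cores followed by an ISRE core, and all other capitals are ISRE cores, overlapping each other in Irgm1. The ISRE core searched was GAAA, then 2 bases of any kind, then GAAA again, which reads on the other strand as TTTC, 2 bases of any kind and TTTC. The GAS core was TTCNNNGAA, which is its own reverse complement. The Ifit3 and Ifit3b stretches carry the same pair of ISRE cores at a shift of 32 bases, and 188 of the 218 bases compared at that shift (86.2%) were identical.

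The RefSeq table held a promoter for 31 of the 43 members, and the 250 bases before the start were searched. Of those 31 genes, 16 (51.6%) had an ISRE core, against 936 of all 27025 genes in the table (3.46%). A GAS core was present in 8 of the 31 (25.8%), against 8.13% of all genes. Oas1a, Gbp7, Igtp and Bst2 held both kinds, and only in Bst2 did a core of each kind overlap. The matches decided which promoters are printed, and no member was chosen by them. Of the 7 members with a promoter entry that passed the threshold for KD against LFD, 2 held an ISRE core and 2 a GAS core (Irf1 and Ifit2), and of the 24 that did not pass, 14 held an ISRE core. The 16 genes with an ISRE core had a median log2 fold change of -1.13 for KD against LFD (range -2.23 to 0.05), and the 15 with an entry and no ISRE core one of -0.89 (range -1.94 to -0.10). A match is a string of letters in this window and was not measured as a bound site.

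Library totals ran from 15513502 to 26588390 counts. Levels are in CPM (counts scaled to a common library size) after adjustment by the trimmed mean of M values (TMM), and 1 count was worth 0.0419 to 0.0891 CPM. At least 10 counts were present in every library for 32 of the 43 members, while Oas3 had 65 and Mx1 86 counts in the whole series. Beta cell markers, insulin among them, were present in each library and took 1.77% to 13.1% of the counts. Acinar markers, which come from the exocrine pancreas around the islets, took 14.9% to 35.2% of the counts in LFD, 11.2% and 18.8% in HFD, and 60.2%, 44.3%, 55.9% and 20.3% in KD 1 to KD 4. Summed B lymphocyte markers stood apart in LFD 1 and LFD 2, at 556 and 1320 CPM, against 83.0 in LFD 3, 57.2 and 76.5 in HFD and 6.50 to 26.5 in KD. Batch, isolation day and animal identity were not in the labels used here.

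On the ketogenic diet, most of the interferon-stimulated genes had lower levels than on the low fat diet. Of the 43 members, 12 fell past the threshold (edgeR quasi-likelihood test, Benjamini-Hochberg adjusted p below 0.05 over all genes tested) and 0 rose, where 4.12% of all genes were called in either direction, 3.14% lower and 0.981% higher. Log2 fold changes were below 0 for 42 members (97.7%, against 51.9% of all genes), and their median was -1.09, against -0.02 over all genes. Every KD library was below every LFD library for 26 members and above for 0, patterns seen in 10.1% and 9.69% of all genes. The 12 that fell were Irf9, Irf1, Nlrc5, Ifi203, Ifi204, Ifit2, Oas2, Ifi47, Trim30a, Parp14, Rtp4 and Xaf1, and they came from each role class other than antigen processing. Since these contrasts were in view when the list was made, nothing about the list is read from these shares.

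**Figure D1:**
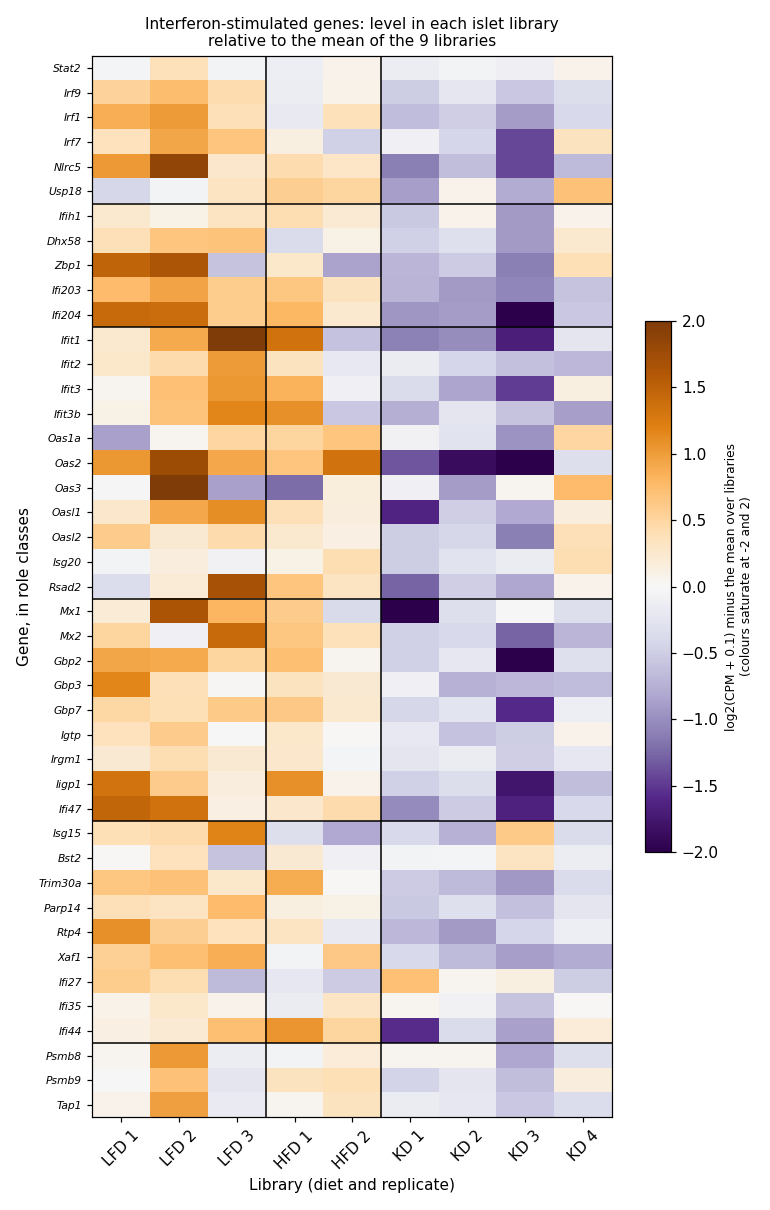
Level of each of the 43 genes (rows, in role classes divided by lines) in each of the 9 libraries (columns, by diet and replicate), as log2(CPM + 0.1) minus the gene's mean over the libraries, with colours saturating at -2 and 2. LFD columns are mostly orange (higher) and KD columns mostly purple (lower), KD 3 holds the lowest value for 27 of the 43 genes, and rows such as Stat2, Bst2 and Isg20 show little contrast.

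Library by library, the members' median level relative to each gene's own mean was 0.36, 0.67 and 0.42 on the log2 scale in LFD 1 to LFD 3, 0.33 and 0.14 in HFD, and -0.48, -0.40, -0.82 and -0.24 in KD 1 to KD 4. The 3 diets did not overlap on this scale. LFD 2 held the highest value for 16 members and LFD 3 for 11, whereas KD 3 held the lowest for 27. KD 4 was the highest KD library for 25 members. The same counts were not made over all genes. Among the KD libraries, KD 4 had both the smallest acinar share and the largest beta cell marker share. That beta cell share was 13.1%, against 1.77%, 5.23% and 3.00% in KD 1 to KD 3. The part of either share in the members' levels was not tested. Per transcript length, on the scale of CPM per kilobase of the longest annotated transcript (RPKM), the highest levels over all libraries were those of Ifi27 (31.5), Isg20 (21.6) and Irf1 (15.0), and the lowest those of Mx1 (0.139) and Oas3 (0.0753).

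The markers of lymphocytes were also lower in KD than in LFD and are given here for the whole lists. All 14 B lymphocyte markers fell in KD against LFD, with a median log2 fold change of -6.70, and none of the 14 was at 0 in every library of a diet. Of 12 tested T and natural killer cell markers, 10 fell (median -4.69), and their summed level was 8.07 to 64.5 CPM in LFD, 3.14 and 4.10 in HFD and 1.07 to 2.88 in KD, with Cd5, Cd8a, Zap70 and Gzma at 0 in both HFD libraries. Macrophage markers summed to 80.7 to 140 CPM in LFD, 101 and 134 in HFD and 43.6 to 78.9 in KD. Of 13 tested, 12 had a log2 fold change below 0 (median -0.61), and only Lyz2, the lysozyme of myeloid cells, fell past the threshold. In addition, 0 of 12 fibroblast markers (median -0.79), 4 of 10 duct markers and 1 of 8 tested plasmacytoid dendritic cell markers fell. Among all genes tested, 3.14% fell. Endothelial markers summed to 435 to 565 CPM in LFD and 401 to 619 in KD, and 0 of 12 passed the threshold in either direction. In such bulk libraries, fewer cells of a type and less RNA per cell cannot be told apart. The lymphocyte score, the mean log2 CPM of the B and T lymphocyte lists, was 0.64 to 3.14 in LFD, -1.35 and -1.10 in HFD and -2.58 to -1.91 in KD. It separated the diets completely, so a fit with both has little left to tell score and diet apart, and its lost calls and changes of sign are values under that overlap. With this score as a covariate, 0 members and 0 genes in all passed the threshold for KD against LFD, and the members' median log2 fold change was -0.44. The adjusted p of the 12 that had fallen was then 0.264 (Parp14) to 0.93 (Irf1). Without LFD 1 and LFD 2, which left LFD 3 as the only control, 0 members passed (25 of all genes did), while the median was -0.92 and 36 of the 43 fold changes stayed below 0. LFD 3, itself part of that comparison, was above every KD library for 31 of the 43 members (72.1%), against 31.9% of all genes. The part of lymphocytes in the difference was not tested.

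**Figure D2:**
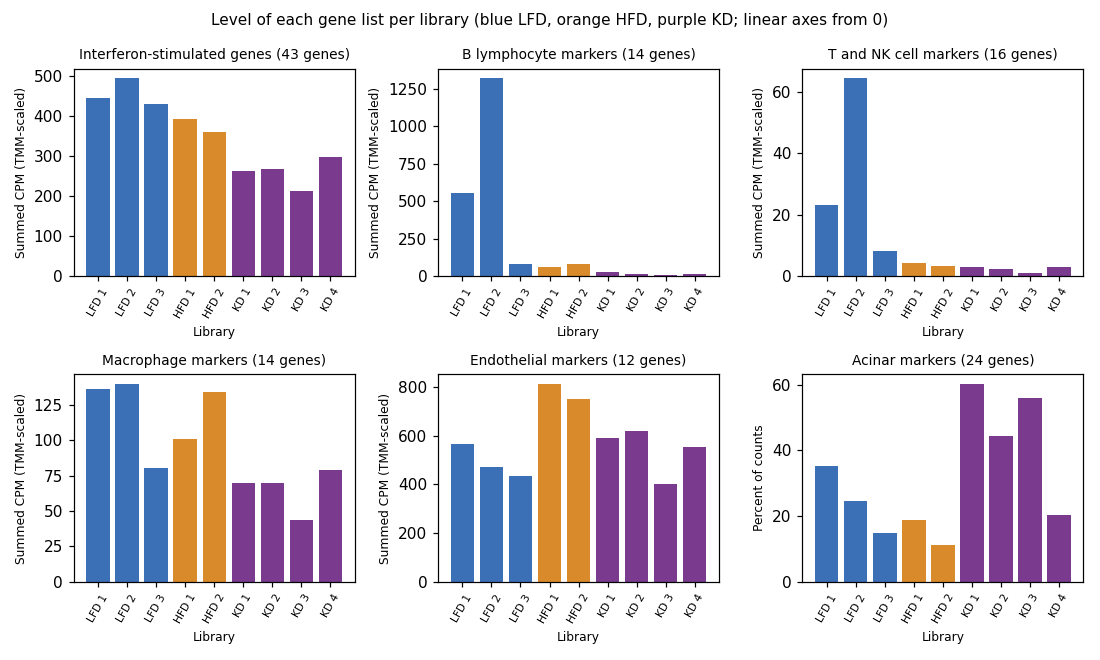
Summed level per library of the 43 interferon-stimulated genes and of marker lists of B lymphocytes, T and natural killer cells, macrophages and endothelium (vertical axes, TMM-scaled CPM), and the share of counts in acinar markers (percent), with libraries on the horizontal axis and bars coloured by diet. The interferon-stimulated genes sum to 430 to 494 CPM in LFD, 360 and 392 in HFD and 213 to 297 in KD, while the B lymphocyte bars of LFD 1 and LFD 2 exceed all others, at 556 and 1320 against 83.0 CPM or less.

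Among the 6 signalling and transcription genes, 3 fell on the ketogenic diet, and their median log2 fold change was -0.96. Irf1 (ENSMUSG00000018899), the transcription factor first found on the interferon beta promoter, stood at 53.2, 58.4 and 37.7 CPM in LFD, 25.5 and 37.4 in HFD, and 18.4, 20.5, 15.6 and 22 in KD. All 9 libraries thus fell into diet order without overlap. Its log2 fold change for KD against LFD was -1.37 (SE 0.19, adjusted p = 0.00535). Irf9 (ENSMUSG00000002325), the DNA-binding part of the complex that STAT2 enters, stood at 19.7, 22.9 and 18.4 CPM in LFD, 12.5 and 14.6 in HFD, and 9.57, 11.6, 9.26 and 10.8 in KD. Here too the diets did not overlap, and the log2 fold change was -0.97 (SE 0.15, adjusted p = 0.0104). Nlrc5 (ENSMUSG00000074151), the transactivator of MHC class I genes, stood at 10.2, 18.2 and 6.00 CPM in LFD, 6.75 and 6.12 in HFD, and 2.26, 3.16, 1.78 and 3.09 in KD. LFD 2 was far above the other controls, and the log2 fold change was -2.13 (SE 0.35, adjusted p = 0.0115). With the lymphocyte score as a covariate it was 0.66 (adjusted p = 0.672), and without LFD 1 and LFD 2 it was -1.17.

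Stat2 (ENSMUSG00000040033), which pairs with IRF9, showed no such separation: 16, 21.3 and 15.8 CPM in LFD, 15.1 and 17.2 in HFD, and 14.9, 15.9, 15.2 and 17.2 in KD. The ranges overlapped, the log2 fold change was -0.16 (SE 0.15, adjusted p = 0.559), and without LFD 2 it was -0.01. Irf7 (ENSMUSG00000025498), which amplifies type I interferon production, was lower in level, at 3.31, 4.97 and 4.13 CPM in LFD, 2.80 and 1.80 in HFD, and 2.41, 1.87, 0.891 and 3.27 in KD. KD 4 came just under the lowest control, and the log2 fold change of -0.95 (SE 0.38) did not pass (adjusted p = 0.169). Usp18, the protease that removes ISG15 and dampens receptor signalling, was the remaining member of this class and overlapped widely between LFD (6.50 to 10.9 CPM) and KD (4.67 to 14.2 CPM).

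All 5 nucleic acid sensors had a log2 fold change below 0 (median -1.58), and both members of the interferon-inducible p200 family fell. Ifi203 (ENSMUSG00000039997) stood at 18.3, 21.1 and 16.3 CPM in LFD, 17.2 and 13.7 in HFD, and 6.61, 5.70, 5.17 and 7.21 in KD. The HFD libraries lay with or just under the controls, and all 4 KD libraries lay far below both. Its log2 fold change for KD against LFD was -1.58 (SE 0.18), with the lowest adjusted p of all 43 members, 0.00235. Ifi204 (ENSMUSG00000073489), a DNA sensor of the same family, stood at 4.84, 4.70 and 2.67 CPM in LFD, 3.10 and 2.10 in HFD, and 0.856, 0.891, 0.356 and 1.17 in KD. All 4 KD libraries lay below the lowest control, with a log2 fold change of -2.26 (SE 0.39, adjusted p = 0.0134, and 0.0523 without LFD 1). These genes sit in a cluster of near-identical paralogs, and each single value is uncertain because the assignment of reads shared among them is not stated. Ifih1 (ENSMUSG00000026896), which encodes the double-stranded RNA sensor MDA5, stood at 19.4, 17.6 and 20.5 CPM in LFD, 21.7 and 19 in HFD, and 11.2, 17.2, 8.64 and 17.1 in KD. KD 2 and KD 4 came close to the lowest control, and the log2 fold change of -0.49 (SE 0.22) did not pass (adjusted p = 0.219). Zbp1 (ENSMUSG00000027514), a sensor of Z-form nucleic acid, stood at 2.08, 2.33 and 0.422 CPM in LFD, 0.850 and 0.335 in HFD, and 0.389, 0.446, 0.267 and 0.941 in KD. LFD 3 was inside the KD range, the log2 fold change was -1.58 (SE 0.63, adjusted p = 0.169), and it was 2.64 with the lymphocyte covariate and 0.35 without LFD 1 and LFD 2. Dhx58, a helicase related to MDA5, was the other member of the class (adjusted p = 0.137).

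Of the 11 genes directed at RNA, 2 fell, all 11 had a log2 fold change below 0, and the median was -1.18. Oas2 (ENSMUSG00000032690), which makes the 2-5A messenger that activates RNase L, stood at 1.66, 2.78 and 1.5 CPM in LFD, 1.25 and 2.05 in HFD, and 0.233, 0.134, 0.0891 and 0.583 in KD. HFD and LFD libraries were mixed and KD lay apart, but on 215 counts in the whole series. Its log2 fold change of -2.81 (SE 0.56, adjusted p = 0.0223) was the largest of the 43, and the adjusted p ran from 0.0512 to 0.0762 without LFD 1, LFD 2, KD 1, KD 2 or KD 3. Ifit2 (ENSMUSG00000045932), which binds viral RNA and limits its translation, stood at 5.03, 5.65 and 8.44 CPM in LFD, 5.25 and 3.60 in HFD, and 3.73, 3.03, 2.67 and 2.55 in KD. LFD 3 was the highest control, the reverse of the order seen for most members that fell. The log2 fold change was -1.09 (SE 0.27, adjusted p = 0.0443), and the adjusted p was 0.0567 to 0.122 when any of the 9 libraries was left out. Ifit1 (ENSMUSG00000034459), which recognises RNA caps that lack 2′-O methylation, stood at 6.01, 9.50 and 22.5 CPM in LFD, 13.0 and 3.31 in HFD, and 2.33, 2.45, 1.51 and 4.26 in KD. The controls ranged widely and HFD 2 lay within the KD range, and the log2 fold change of -2.23 (SE 0.56) did not pass (adjusted p = 0.0563). The adjusted p was 0.0442 without HFD 1 or HFD 2 and 0.0425 without KD 4.

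Isg20 (ENSMUSG00000039236), a 3′ exonuclease, was among the most abundant members and showed no such pattern. It stood at 22.1, 25.6 and 21.9 CPM in LFD, 24.6 and 30.7 in HFD, and 16.1, 19, 20.7 and 30.7 in KD, with KD 4 as high as the highest HFD library. Its fold change on the log2 scale was -0.10 (SE 0.20, adjusted p = 0.815), and it was 0.02 without KD 1 and 0.13 with an acinar score as a covariate. Oasl2 (ENSMUSG00000029561), a ubiquitin-like relative of the OAS enzymes, stood at 10.1, 7.75 and 9.00 CPM in LFD, 7.80 and 7.12 in HFD, and 4.59, 4.90, 3.03 and 8.60 in KD. Only KD 4 reached the control range. Oasl2 had a log2 fold change of -0.74 (SE 0.29, adjusted p = 0.167, and 0.0273 without KD 4). The other 6 genes of the class, Ifit3, Ifit3b, Oas1a, Oas3, Oasl1 and Rsad2, had log2 fold changes from -1.42 to -0.09 and adjusted p from 0.094 to 0.929. Ifit3 and Ifit3b share most of their sequence upstream of the start, as shown, and their counts may be split between them.

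Of the 9 GTPases, 1 fell. All 9 log2 fold changes were below 0, and their median was -1.40. Every KD library was below every LFD library for 8 of the 9, a pattern seen in 10.1% of all genes. These genes were named with the diets in view. Ifi47 (ENSMUSG00000078920), an immunity-related GTPase, stood at 6.13, 5.65 and 2.35 CPM in LFD, 2.60 and 2.98 in HFD, and 1.01, 1.47, 0.623 and 1.61 in KD. LFD 3 was below both HFD libraries and still above all KD libraries. Its log2 fold change was -1.94 (SE 0.40, adjusted p = 0.0247), with an adjusted p of 0.0571 to 0.102 without LFD 1, LFD 2, KD 1, KD 2 or KD 3, and the value was 0.52 with the lymphocyte covariate. Irgm1 (ENSMUSG00000046879), a regulator of these GTPases and of autophagy, stood at 18.3, 21 and 18.4 CPM in LFD, 18.7 and 15.2 in HFD, and 13.2, 14.1, 11.1 and 13.4 in KD. KD was below all other libraries by a small margin, and the log2 fold change was -0.56 (SE 0.15, adjusted p = 0.056). Gbp7 (ENSMUSG00000040253), a guanylate-binding protein, stood at 14.3, 13.7 and 15.9 CPM in LFD, 16 and 12.3 in HFD, and 7.70, 8.64, 3.38 and 9.45 in KD. LFD and HFD overlapped and KD lay below, with a log2 fold change of -0.98 (SE 0.28, adjusted p = 0.0675, and 0.0398 without KD 4). Mx1 (ENSMUSG00000000386), a dynamin-like antiviral GTPase, was close to the limit of detection, at 0.429, 1.34 and 0.704 CPM in LFD, 0.600 and 0.251 in HFD, and 0, 0.267, 0.356 and 0.269 in KD. The 0 in KD 1 allows up to 0.233 CPM, and the log2 fold change was -1.85 (SE 0.74, adjusted p = 0.169). Mx2, Gbp2, Gbp3, Igtp and Iigp1 had log2 fold changes from -1.49 to -0.63 and adjusted p from 0.0537 to 0.135. The guanylate-binding and immunity-related GTPase genes lie in clusters of close paralogs, so the counts of each are uncertain.

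**Figure D3:**
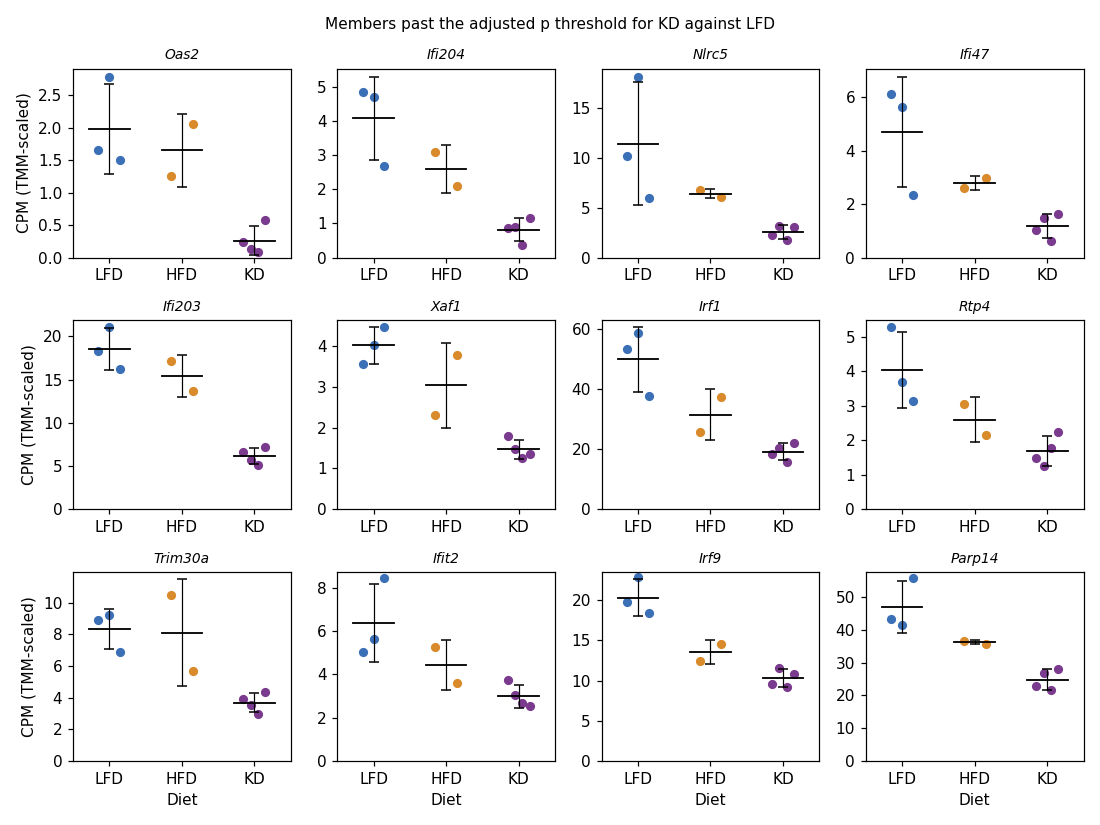
CPM (TMM-scaled, linear axes from 0) in each library, by diet, for the 12 members that fell in KD against LFD, with each point a library, the long bar the mean and the whisker the SD (3 LFD, 2 HFD and 4 KD libraries). KD points lie below all LFD points in each of the 12 panels, and the HFD mean lies between those of LFD and KD in all 12. The 12 were picked by an adjusted p below 0.05 for this same contrast, so the gap between KD and LFD is not further evidence.

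In the class of ubiquitin-like and other effectors, 4 of 9 genes fell and the median log2 fold change was -0.92. Parp14 (ENSMUSG00000034422), an ADP-ribosyltransferase, stood at 43.4, 41.6 and 56.0 CPM in LFD, 36.6 and 35.8 in HFD, and 23, 26.9, 21.6 and 28 in KD. The diets did not overlap, and the log2 fold change was -0.92 (SE 0.14, adjusted p = 0.0104). Xaf1 (ENSMUSG00000040483), a pro-apoptotic partner of XIAP, stood at 3.56, 4.03 and 4.46 CPM in LFD, 2.30 and 3.77 in HFD, and 1.79, 1.47, 1.25 and 1.34 in KD. HFD 2 was inside the control range and HFD 1 below it, and the log2 fold change was -1.46 (SE 0.28, adjusted p = 0.022, and 0.0583 to 0.0692 without LFD 1, LFD 2, KD 2 or KD 3). Trim30a (ENSMUSG00000030921), a tripartite-motif protein of mouse, stood at 8.89, 9.23 and 6.85 CPM in LFD, 10.5 and 5.70 in HFD, and 3.89, 3.52, 2.94 and 4.35 in KD. HFD 1 was the highest library of all, and the log2 fold change for KD against LFD was -1.17 (SE 0.25, adjusted p = 0.0289, and 0.0571 to 0.0999 without LFD 1, LFD 2, KD 1, KD 2 or KD 3). Rtp4 (ENSMUSG00000033355), a receptor-transporting chaperone, stood at 5.27, 3.67 and 3.14 CPM in LFD, 3.05 and 2.14 in HFD, and 1.48, 1.25, 1.78 and 2.24 in KD. HFD 2 was below the highest KD library. Rtp4 had a log2 fold change of -1.25 (SE 0.31, adjusted p = 0.0497), and the adjusted p was 0.0688 to 0.194 without any library other than LFD 3 and KD 4.

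Ifi27 (ENSMUSG00000064215), a small mitochondrial membrane protein and the most abundant member per length, did not move with the rest. It stood at 43.9, 39.0 and 18.4 CPM in LFD, 25.3 and 20.4 in HFD, and 47.6, 30.1, 32.0 and 20.6 in KD, so that the LFD and KD ranges overlapped almost wholly. The log2 fold change was -0.05 (SE 0.32, adjusted p = 0.941), and its sign depended on the libraries: it was 0.17 without LFD 1 and -0.35 without LFD 3. The single member with a log2 fold change above 0 was Bst2, the membrane tether that holds budding virions, at 0.05 (adjusted p = 0.933). It is outside the rule for named genes and was picked out after its value was seen. Isg15, Ifi35 and Ifi44 had log2 fold changes from -0.96 to -0.27 and adjusted p from 0.217 to 0.436.

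The 3 antigen processing genes did not pass, with a median log2 fold change of -0.64. Tap1 (ENSMUSG00000037321), a subunit of the peptide transporter, stood at 10.3, 19.3 and 8.68 CPM in LFD, 10.1 and 12.3 in HFD, and 8.79, 8.42, 6.59 and 7.66 in KD. Psmb8 (ENSMUSG00000024338), a catalytic subunit of the immunoproteasome, stood at 6.81, 13.3 and 5.91 CPM in LFD, 6.25 and 7.37 in HFD, and 6.69, 6.68, 3.65 and 5.20 in KD. Both genes were high in LFD 2, the library with the most lymphocyte marker RNA, and LFD 1 and LFD 3 lay within or just above the KD range. Tap1 had a log2 fold change of -0.70 (SE 0.26, adjusted p = 0.142), and without LFD 2 it was -0.27. That of Psmb8 was -0.64 (SE 0.30, adjusted p = 0.24), and without LFD 2 it was -0.19. With the lymphocyte covariate, whose score separated the diets completely, they were 1.27 and 1.47. The part of lymphocytes in these values was not tested. Psmb9, the partner subunit next to Psmb8, had a log2 fold change of -0.47.

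**Figure D4:**
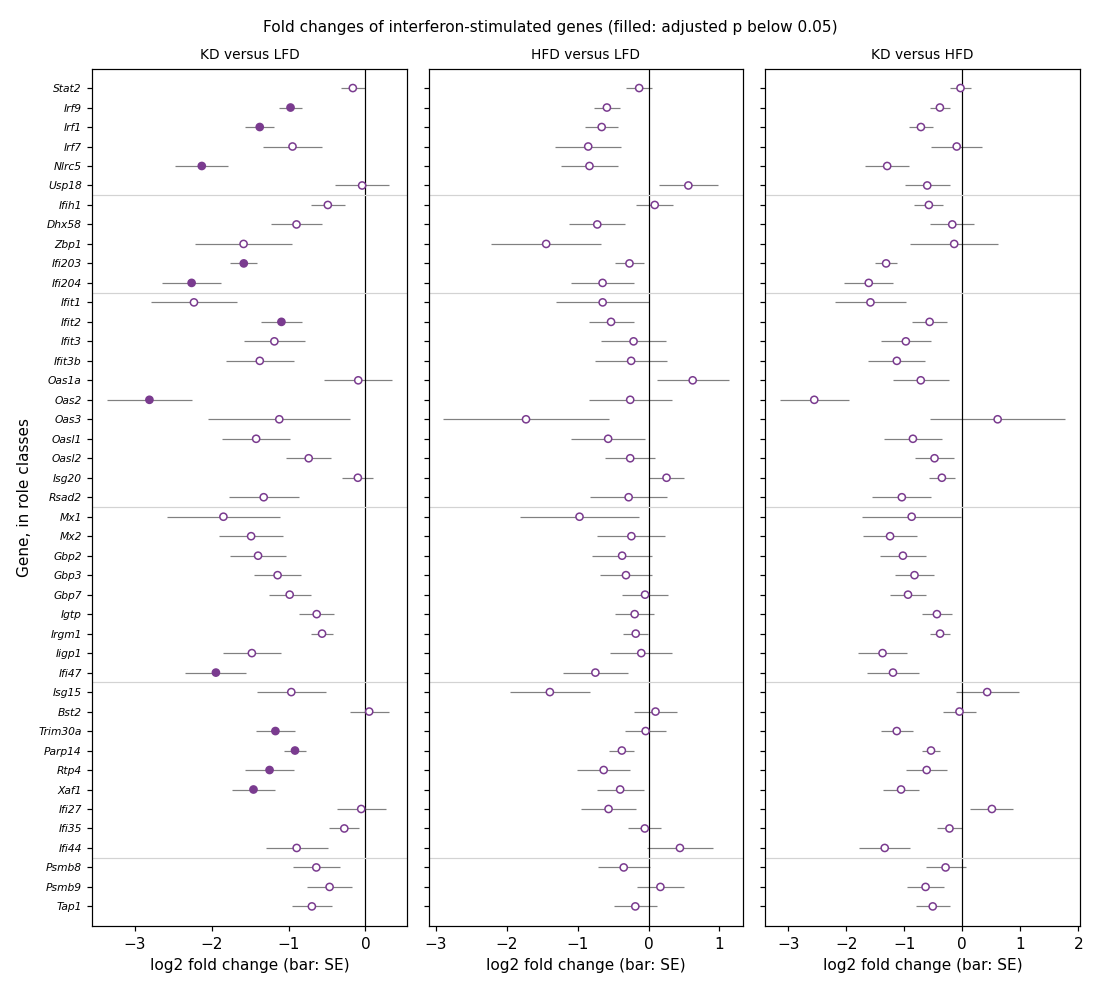
Log2 fold change of each of the 43 genes (rows, in role classes) for KD against LFD, HFD against LFD and KD against HFD (panels), with bars for 1 SE and filled points for an adjusted p below 0.05. The 12 filled points are all in the first panel, whose median is -1.09, and the medians of the other panels are -0.28 and -0.63. The panels share libraries, so they are not independent of each other.

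The genes upstream of the response were looked at from lists of ligands, receptors and sensors. None of the 21 interferon genes listed had enough counts to be tested. In all 9 libraries together there were 5 counts of Ifnb1, 4 of Ifnk and 3 of Ifng, and the other 18 were at 0, which allows up to 0.126 to 0.267 CPM in a library. Of these 12 counts, 1 was in a KD library and 0 in HFD. Of 16 receptor, kinase and regulator genes, 2 fell and 0 rose (median log2 fold change -0.30), where 3.14% of all genes fell. Socs3 (ENSMUSG00000053113), a feedback inhibitor of cytokine receptors, stood at 31.0, 31.1 and 23.4 CPM in LFD, 6.90 and 11.6 in HFD, and 9.10, 7.17, 7.66 and 8.02 in KD. HFD and KD overlapped and both lay far below the controls, with a log2 fold change of -1.84 for KD against LFD (SE 0.20, adjusted p = 0.00211). Jak2, a receptor-associated kinase, stood at 37.5, 40.6 and 40.6 CPM in LFD, 34.9 and 34.2 in HFD, and 27.4, 28.1, 25.4 and 28.9 in KD. Its libraries were tight within each diet, and the log2 fold change was -0.53 (SE 0.11, adjusted p = 0.0261, and 0.0541 to 0.0862 without LFD 1, LFD 2, KD 1, KD 2 or KD 3).

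Of 20 genes of the sensing pathway upstream of interferon, 4 fell and 0 rose (median log2 fold change -0.57), where 3.14% of all genes fell. Ddx58, which encodes the RNA sensor RIG-I, stood at 25.2, 25.9 and 27 CPM in LFD, 25.1 and 25.3 in HFD, and 13.4, 15.1, 16 and 17.6 in KD. HFD was close to the control level and KD was below it in every library, with a log2 fold change of -0.74 (SE 0.13, adjusted p = 0.0143, and 0.0501 to 0.0552 without LFD 1, KD 2 or KD 3). The other 3 were Tmem173 (STING, the adaptor for cytosolic DNA), Tlr7 (an endosomal RNA receptor) and Irf8 (a transcription factor of B lymphocytes and myeloid cells). Tmem173 stood at 7.85, 12.0 and 3.42 CPM in LFD and 0.891 to 2.63 in KD (log2 fold change -2.05, adjusted p = 0.0313). Irf8 stood at 6.74, 18.9 and 6.00 CPM in LFD and 1.34 to 3.85 in KD (-1.93, adjusted p = 0.0328, and -1.20 without LFD 2, adjusted p = 0.1). Tlr7 stood at 3.37, 2.64 and 1.69 CPM in LFD and 0.178 to 0.851 in KD (-2.16, adjusted p = 0.0376). All 3 are also expressed in lymphocytes or myeloid cells, and the part of these cells in the values was not tested. With the lymphocyte covariate, whose score separated the diets completely, the values were 1.08 for Tmem173, 1.13 for Irf8 and -0.81 for Tlr7. These 3 calls were each lost without LFD 1, LFD 2, KD 1, KD 2 or KD 3, with an adjusted p of 0.051 to 0.14, and those of Tmem173 and Irf8 also without HFD 1 or HFD 2.

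A wider list held 71 other interferon-stimulated genes, 61 of them with enough counts. In it 14 fell and 0 rose, with a median log2 fold change of -0.91. Over all genes 3.14% fell and 0.981% rose, with a median of -0.02. The wider list was also written with earlier results of these data known. Cxcl10 (ENSMUSG00000034855), a chemokine that draws T lymphocytes, stood at 2.94, 4.03 and 3.10 CPM in LFD, 1.6 and 1.13 in HFD, and 0.389, 0.0891, 0 and 0.314 in KD. The diets did not overlap, and the 0 in KD 3 allows up to 0.267 CPM. The log2 fold change was -4.01 (SE 0.57, adjusted p = 0.00593). Ifi209 (ENSMUSG00000043263), another p200 gene, stood at 3.99, 5.60 and 3.10 CPM in LFD, 1.30 in each HFD library, and 0.545, 0.223, 0.623 and 0.627 in KD. Its log2 fold change was -3.09 (SE 0.40, adjusted p = 0.0043). Samd9l, an antiviral effector, was well counted and tight in the controls, at 48.6, 51.4 and 50.7 CPM in LFD, 50.1 and 35.1 in HFD, and 16.1, 21.2, 19.3 and 31.3 in KD (adjusted p = 0.0138). The next by p were Ifi207, Slfn8 and Slfn2, with log2 fold changes of -1.79, -1.99 and -1.99. Of 18 genes of MHC class I presentation, 2 fell: B2m, the shared light chain, at 117, 138 and 65.5 CPM in LFD and 37.1 to 63.3 in KD, and H2-Q4, a class Ib heavy chain, at 25.3, 26.6 and 21.8 CPM in LFD and 10.2 to 17.6 in KD. The median of that list was -0.17, against -0.02 over all genes, of which 3.14% fell.

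On the high fat diet, the same genes lay mostly between the other diets, and none passed the threshold. For HFD against LFD, 0 of 43 members were called in a comparison where 0% of all genes were, and the smallest adjusted p among the members was 0.366. DESeq2 and limma-voom also called 0 of the 43. At an unadjusted p under 0.05 there were 3 members with edgeR, 5 with DESeq2 and 10 with limma-voom, against 9.99%, 10.9% and 16.2% of all genes with the same tools. Log2 fold changes were below 0 for 36 members (83.7%, against 50.2% of all genes), with a median of -0.28 (-0.0017 over all genes), and HFD libraries were all below LFD for 7 members and all above for 2, patterns held by 14.1% and 13.4% of all genes. Those above were Usp18, at 13.1 and 12.4 CPM against 6.50 to 10.9, and Oas1a, both picked out for this. B lymphocyte markers had a median log2 fold change of -4.52 and endothelial markers of 0.58 in this comparison, with 0 calls in either list, and their part in the result was not tested. With the lymphocyte covariate the members' median was 0.27, and without LFD 1 and LFD 2 it was -0.05.

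For KD against HFD, 0 of 43 members passed (0% of all genes did), with a smallest adjusted p of 0.124. DESeq2 called 7 members and 8.18% of all genes, and limma-voom 0 and 0%. An unadjusted p under 0.05 was reached by 21 members with edgeR, by 20 with DESeq2 and by 21 with limma-voom, against 22.7%, 23.7% and 25.3% of all genes. Log2 fold changes were below 0 for 40 members (93%, against 53.2% of all genes), with a median of -0.63 (-0.04 over all genes), and KD libraries were all below both HFD libraries for 22 members and above them for 0, patterns held by 18.2% and 15.7% of all genes. Median log2 fold changes were -2.04 for B lymphocyte markers (13 of 14 below 0), -0.79 for macrophage markers (12 of 13), -0.63 for fibroblast markers (11 of 12), -0.51 for endothelial markers (11 of 12) and 2.57 for acinar markers, and their part in the result was not tested. Without KD 4, 7 members and 1793 genes in all passed. This comparison and those with LFD share libraries, so each is given with its own values only. The HFD mean lay below that of LFD and above that of KD for 33 members (76.7%), against 17.3% of all genes. This position requires an LFD mean above the KD mean, and the members were named with these diets in view. A log2 fold change below 0 for KD against LFD held for 97.7% of members and 51.9% of all genes. The shares of 76.7% and 17.3% are therefore not like for like. Of the 12 that fell in KD against LFD, which were picked for a high LFD and a low KD level, 4 had both HFD libraries below every LFD library (Irf9, Irf1, Parp14 and Rtp4). A pick for a high LFD level favours this pattern, which 7 of all 43 members and 14.1% of all genes held.

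The number of members that fell in KD against LFD depended on single libraries. It was 5 without LFD 1, 6 without LFD 2, KD 2 or KD 3, 7 without KD 1, 13 without LFD 3 and 17 without KD 4. The number of all genes called, 764 with every library, moved as well. It was 177 without LFD 1, 224 without LFD 2, 199 without KD 2 and 151 without KD 3. Without KD 1 it was 378, without LFD 3 929 and without KD 4 1348. Irf1, Irf9, Nlrc5, Ifi203 and Parp14 passed in all 9 omissions, as did Socs3, Cxcl10 and Ifi209 outside the list. None of these members passed in every alternative. Their highest log2 fold changes over all alternatives were -0.12 for Irf1, -0.38 for Irf9, 0.66 for Nlrc5, -0.90 for Ifi203 and -0.75 for Parp14. Without KD 1 and KD 3, the libraries with the most acinar RNA, 1 member and 64 genes in all passed, and the members' median was -0.96. With the acinar score as a covariate, 13 members and 1475 genes in all passed, and the members' median was -0.88. KD 4 had an acinar share within the range of the LFD libraries, and its members summed to 297 CPM against 430 to 494 in LFD. The part of acinar RNA in the difference was not tested.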

How the data were processed

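Bulk RNA-seq of islets was taken from 9 libraries. The authors deposited raw counts per gene, whole numbers with 1 column per library, and columns were assigned through the run name that opens each title. Per the labels' protocols, libraries were stranded and made from poly(A) RNA. Per the submitters' processing notes, cutadapt 1.16, STAR 2.7.9a, featureCounts 1.6.3 and DESeq2 1.40.2 were used with GRCm39 (mm39). Annotation release, strand setting and the handling of reads shared by paralogs are not given in the sources used here. A table of gene names gave symbols for 51948 of the 56941 identifiers.

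Counts were fitted with edgeR 4.0.16 in R 4.3.3: filterByExpr by diet (18548 genes, at least 99.86% of each library's counts), TMM scaling, a mean per diet over all 9 libraries and the robust quasi-likelihood test, two-sided, adjusted by Benjamini-Hochberg over all genes at 0.05. No p was adjusted over a list. The SE of a log2 fold change is its size over the square root of F. Covariate scores are the mean log2 CPM (prior count 2) of the acinar, or the B lymphocyte and T cell, lists. RPKM used the longest GENCODE M21 transcript, found for all 318 listed genes. Promoters came from RefSeq on GRCm38.p6. The edgeR procedure was also run on counts simulated from its fitted dispersions, with changes added to some genes. Those counts held no differences in cell content between libraries, so that run cannot test the fit under such differences.

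Full values are given for members past the threshold, Stat2, Irf9, Irf7 and Irf1, and in each class the 2 of highest mean log2 CPM and the 2 of largest log2 fold change. In other lists, only genes past the threshold could be named for a change, up to 6 per list. Marker lists are given mainly by counts and summed levels, and 1 further gene is not reported here. The members and lists were chosen with earlier results of these data known. Alternatives were DESeq2 1.42.0, limma-voom (limma 3.58.1), DESeq2 size factors, other filters, only the diets compared, an acinar covariate, a replicate block and the omission of each library. Count intervals, and the 3 counts that a 0 allows, cover counting error only.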

Additional observations from a re-analysis of the deposited data

Results flagged for a closer look

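In a group of 4 libraries, a value is picked out when its gap to the nearest other library takes up more of the group's range than Dixon's 95% critical value, which chance passes in about 1 of 20 groups. For the 43 members in KD, this picked out 2 genes. Gbp3, a guanylate-binding protein, stood at 3.42 CPM in KD 1 against 2.14 to 2.29 in KD 2 to KD 4, a gap of 0.886 of the range. Bst2 stood at 7.04 CPM in KD 3 against 5.11 to 5.44 in the others, a gap of 0.83 of the range. KD 3 was the lowest library for 27 of the 43 members, and Bst2 was high there. Groups of 2 and 3 libraries were not put to this check.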

How the results depend on the processing

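Members' counts and medians are given here in the order KD against LFD, HFD against LFD and KD against HFD, whose reported values were 12, 0 and 0 members, 764, 0 and 0 genes in all, and medians of -1.09, -0.28 and -0.63. In KD against LFD, the number of all genes called moved with DESeq2 (1773), limma-voom (1873), a filter of 5 CPM in 3 libraries (361), the acinar covariate (1475), total counts as library size (1653), the lymphocyte covariate (0), no LFD 1 and LFD 2 (25) and no KD 1 and KD 3 (64). Members called were 23 with DESeq2, 19 with limma-voom, 24 with total counts, 0 with the lymphocyte covariate, 0 without LFD 1 and LFD 2 and 1 without KD 1 and KD 3, and their median moved to -0.88 with the acinar covariate, -1.63 with total counts (where the median of all genes was -0.59) and -0.44 with the lymphocyte covariate. In HFD against LFD, DESeq2 called 268 genes, limma-voom 11 and the fit without a filter 81, and the members' median reversed to 0.27 with the lymphocyte covariate and was -0.0502 without LFD 1 and LFD 2. In KD against HFD, DESeq2 called 1518 genes and 7 members, the fit without a filter 316 and 3, total counts 1550 and 18 with a median of -1.36 (all genes -0.81), the acinar covariate 2 genes and the lymphocyte covariate 31. Leaving out each library in turn gave 151 to 1348 genes and 5 to 17 members in KD against LFD (median -1.20 to -0.94), 0 to 194 genes (194 without LFD 3) and 0 members in HFD against LFD (median -0.44 to -0.27), and 0 to 1793 genes and 0 to 7 members in KD against HFD (median -0.82 to -0.50). Where an omission left 1 HFD or 1 LFD library, that library was assumed to vary like the others. The lymphocyte covariate, total counts, TMM without acinar and hormone genes, and the paired omissions were chosen after seeing the data. The lymphocyte score separated the diets completely. The causes of these moves were not tested.

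Of the log2 fold changes of single genes in KD against LFD, 548 values under the alternatives kept their sign and their side of the threshold, 123 lost the call, 21 gained one and 21 changed sign. Reversed with the lymphocyte covariate were Stat2 (0.56), Nlrc5 (0.66), Zbp1 (2.64), Isg20 (0.43), Ifi47 (0.52), Ifi27 (1.55), Psmb8 (1.47), Tap1 (1.27), Tmem173 (1.08) and Irf8 (1.13). Without LFD 1 and LFD 2 they were Stat2 (0.0283), Zbp1 (0.35), Isg20 (0.0122) and Ifi27 (0.84). Isg20 was also reversed with the acinar covariate (0.13), without KD 1 and KD 3 (0.0951) and without KD 1 (0.018, where single omissions ran from -0.32 to 0.018), and Ifi27 without LFD 1 (0.17), LFD 2 (0.0627) or KD 4 (0.12), where single omissions ran from -0.35 to 0.17. Depth limited the members under 10 counts in a library, such as Mx1 and Oas3.

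Whether replicate numbers pair the samples was not settled, and the labels tie no number to an animal or day. Deviations of same-numbered libraries correlated at -0.02 to 0.22 across genes, and those of libraries with different numbers at -0.28 to 0.24. Each deviation was taken from the mean of its own diet, so the values within a diet are tied to each other and cannot decide it. With the replicate number as a block, where KD 4 has a term of its own, 2003 genes and 21 members passed in KD against LFD, 395 and 1 in HFD against LFD and 2320 and 13 in KD against HFD, and Ifi27 was reversed (0.17).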
